A study of Danio rerio with 6 samples.

Results

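Cytochrome P450 genes and genes of alcohol, aldehyde, steroid and conjugation enzymes were followed in RNA of entire zebrafish embryos, 72 h after fertilization. The members were selected on measured values: they are the probe sets in the authors' 3 deposited comparison tables, which list differences of at least 2-fold on these same arrays, that carry 1 gene whose current symbol starts with cyp and a digit, gst, ugt, sult, aldh, akr, hsd, adh or pon. This rule gave 49 probe sets of 43 genes, among 2327 probe sets of the tables with 1 gene name and 15502 measured probe sets besides controls. By family they were 18 P450 genes, 10 of alcohol and aldehyde enzymes, 8 of conjugating transferases, 5 of hydroxysteroid dehydrogenases and 2 of paraoxonases. Only the 8 transferases belong to families of conjugation enzymes.

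The arrays fall into 3 groups of 2. ERbeta2 MO embryos received a morpholino, a synthetic antisense oligonucleotide, that blocks translation of the estrogen receptor ERbeta2; coMO embryos received a standard control morpholino; uninjected embryos received none, although their titles carry the same concentration. Both morpholinos were given at 50 uM up to the 4-cell stage, and eggs from several aquaria were pooled before injection. The replicates are titled biological, but no label ties them to separate spawnings, and p-values therefore cover only the spread between these samples. A morpholino of this kind stops translation and need not lower the mRNA of its target, so the arrays do not check the knockdown.

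P450 enzymes insert oxygen into small molecules, and dehydrogenases and reductases act on the resulting alcohols and aldehydes. Transferases then attach glucuronate, sulfate or glutathione, which makes the products easier to excrete. In vertebrates many of these enzymes are most abundant in liver and intestine, where some of them also make bile acids from cholesterol. Other P450s act in development, such as those of family 26, which break down retinoic acid.

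In the signals as deposited nearly every member had a lower signal in ERbeta2 MO embryos than in either kind of control, and the 1 exception was cyp26b1. Against coMO 48 of 49 probe sets were lower, 40 of them by at least 2-fold, at a median log2 difference of -1.56; over all probe sets the median was -0.12, 11.2% were at least 2-fold lower and 5.62% at least 2-fold higher. Against uninjected embryos 48 of 49 were lower, 41 by at least 2-fold, at a median of -1.50, where 9.84% of all probe sets were at least 2-fold lower and 6.23% at least 2-fold higher. Differences are of group means of log2(signal + 16), which understates the change of dim probe sets. Because the tables chose the members from these contrasts, the counts and sizes are a description, carry no test and show nothing about the members against other genes. The direction was not part of the rule, and of the 2321 probe sets of the tables with 1 gene name and a signal, 47.4% were lower against coMO.

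Both ERbeta2 MO arrays lay below all 4 control arrays for 47 of the 49 probe sets, as they did for 32.5% of all probe sets. The remaining probe sets were cyp26b1, for which both lay above all 4, and cyp7a1b, for which they overlapped with coMO but not with uninjected embryos. Tables of both ERbeta2 MO comparisons list 41 of the probe sets, 4 are listed only against uninjected and 4 only against coMO. None of the 49 is in the table of uninjected against coMO. The array signals are shown member by member in the plot of signals.

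**Figure D1:**
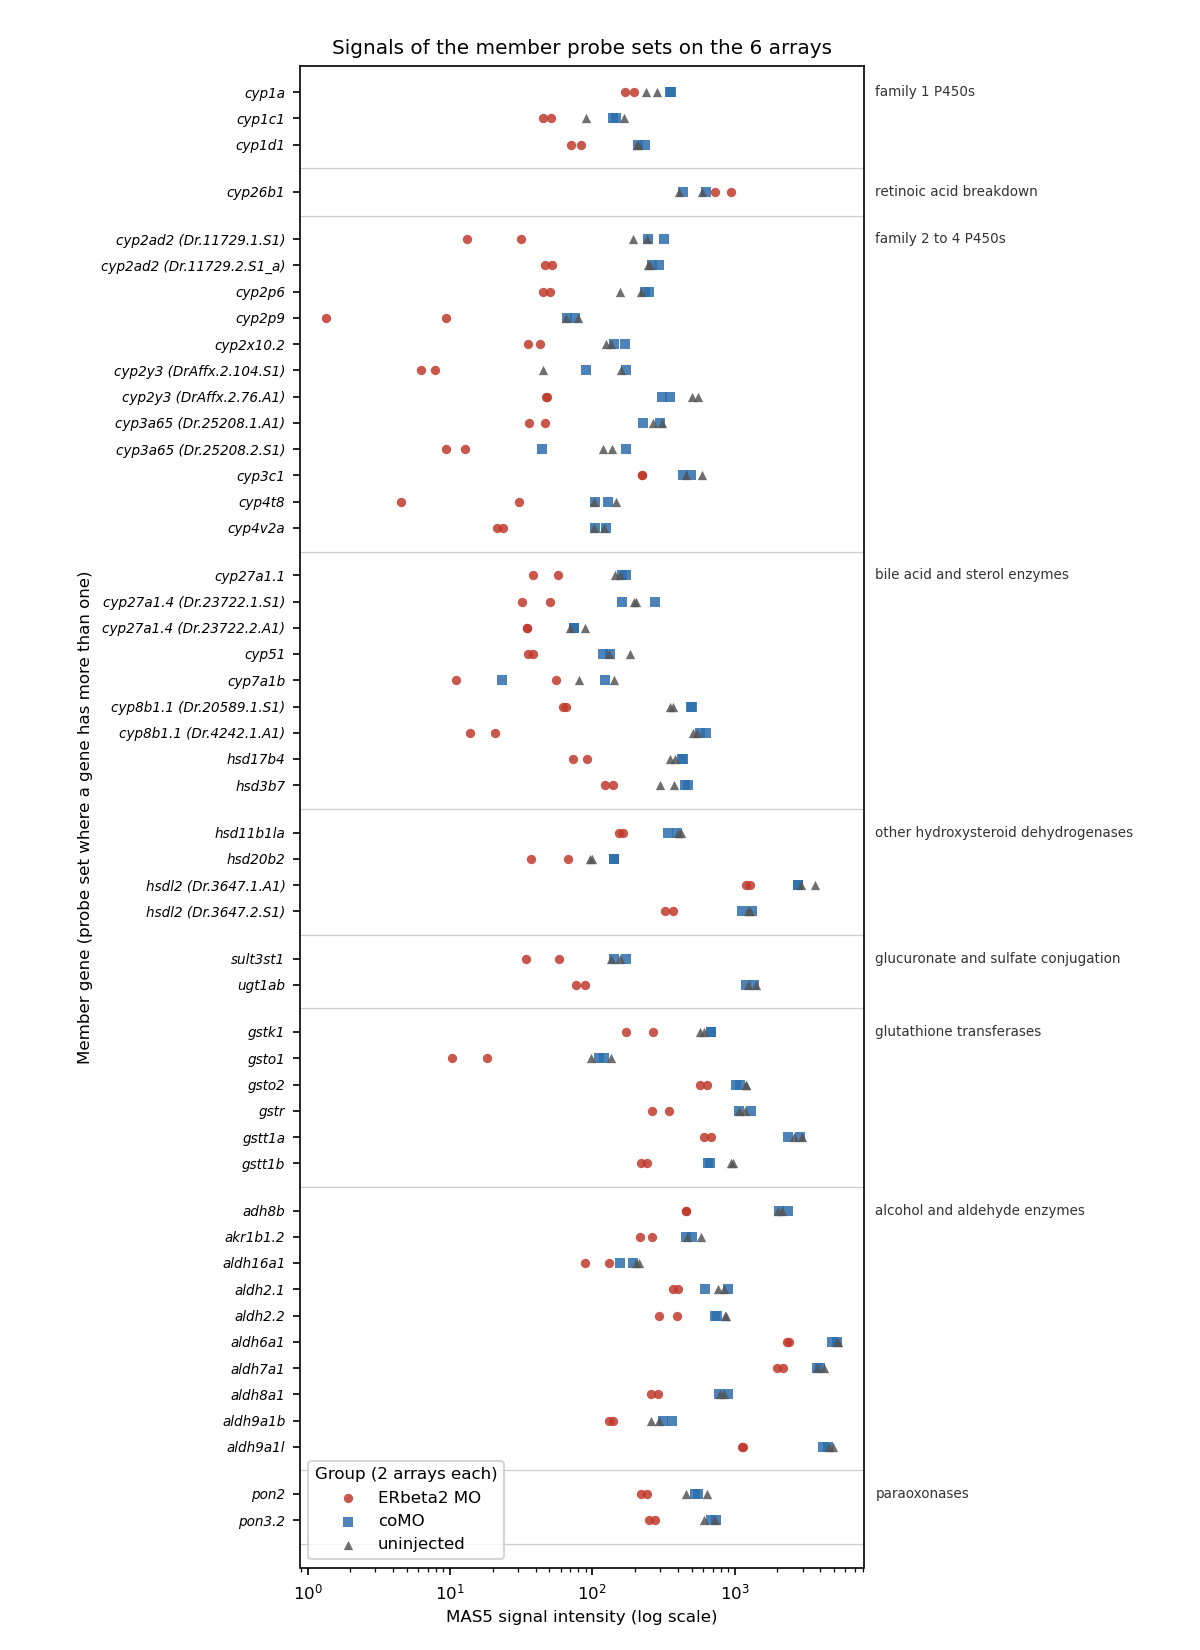
MAS5 signal intensity (log scale, horizontal) of the 49 member probe sets (rows, grouped by the enzymes' role) on each of the 6 arrays; every point is 1 array, 2 for each of ERbeta2 MO, coMO and uninjected. The ERbeta2 MO points lie left of all 4 control points in 47 rows and to the right of them in the cyp26b1 row. In the cyp7a1b row 1 ERbeta2 MO point lies left of all 4 and the other lies among them.

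How far the direction holds depends on the scaling of the arrays. How the authors scaled the arrays is not given in the labels, and the probe sets for poly-A spike RNAs were dimmer with ERbeta2 MO. Their log2 signals averaged 6.74 ± 0.191 in ERbeta2 MO embryos, 7.68 ± 0.224 in coMO embryos and 7.38 ± 0.210 in uninjected ones (SD, n = 2 each). The sample titles do not say that such RNAs were added, and a scaling on these spikes assumes it. With arrays scaled on these spikes all probe sets had a median of 0.81 against coMO (log2), and 41 of 49 members were lower, 17 by at least 2-fold. The probe sets above 0 were then those of cyp26b1, cyp1a, cyp7a1b, gsto2, aldh16a1, aldh2.1 and aldh7a1 and 1 of the 2 of cyp27a1.4. Against uninjected embryos 47 were lower with that scaling, all but cyp1a and cyp26b1. The hybridization controls were dimmer with ERbeta2 MO as well, at a mean log2 signal of 11.09 against 11.55 in coMO and 11.47 in uninjected embryos. With arrays scaled on these controls 48 of 49 members were lower than coMO, 28 by at least 2-fold.

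RNA quality and tissue markers differed between the same arrays. Marker genes could be found only where the authors' tables of 2-fold differences name them. Their counts and sums are therefore a description of selected probe sets, and the other genes of each list were not seen. Of all 15502 probe sets 8872 were lower than coMO and 6630 higher. At least 2-fold lower were 11.2% and at least 2-fold higher 5.62%. The 3' to 5' signal ratio of GAPDH, which reflects how intact the RNA was, read 2.14 and 2.15 in ERbeta2 MO, 1.67 and 1.34 in coMO and 1.47 and 1.35 in uninjected embryos. The same ratio of acta1 was larger and spread more, at 13.57 and 11.59 in ERbeta2 MO, 7.64 and 5.72 in coMO and 5.41 and 10.04 in uninjected embryos. Of 25 liver marker genes 8 are named in the tables, with 9 probe sets, of which 8 were lower than in coMO; their summed signal was 12521 to 12717 in ERbeta2 MO, 54795 to 62206 in coMO, and 58112 to 62040 in uninjected embryos. The defining liver marker fabp10a, a fatty acid binding protein of hepatocytes, had signals of 21.35 and 11.97 in ERbeta2 MO, near the offset of 16, against 2502 and 2164 in coMO and 1998 and 2618 in uninjected embryos. The liver markers were not uniform, with 6 of the 9 probe sets at least 2-fold lower than coMO. Those of ambp and kng1 stood at log2 -0.79 and -0.82. The liver marker cp was higher, with 936 and 1011 in ERbeta2 MO, 368 and 465 in coMO and 445 and 457 in uninjected embryos. Of 20 intestine markers 9 are named, and all 10 of their probe sets were lower than in coMO, with fabp1b.1 above 0 when scaled on the spikes; the sums were 4996 to 5587 in ERbeta2 MO, 24298 to 25063 in coMO and 27610 to 30508 in uninjected embryos. The liver and intestine sums of ERbeta2 MO embryos lay below those of all control arrays. Red blood cell markers, 10 of 12 genes, were higher than in coMO in 11 of 11 probe sets, with sums of 90378 to 90561 in ERbeta2 MO, 43373 to 45147 in coMO and 42244 to 50269 in uninjected embryos. Skin markers, 5 of 17 genes, were lower in 4 probe sets and higher in 2, with sums of 21231 to 21734 in ERbeta2 MO, 29345 to 29796 in coMO and 26681 to 29213 in uninjected embryos. The skin sums of ERbeta2 MO embryos thus also lay below those of all control arrays. The skin sums count krt91 on 2 probe sets, at log2 -2.17 and -1.87 from coMO. The liver, intestine and red blood cell sums likewise count tfa, tm4sf4 and hbae3 on 2 probe sets each. Some of these were large parts of the sums. The probe sets of tfa averaged 12261 and 16081 in coMO, and those of hbae3 20620 and 26809 in ERbeta2 MO. The 2 higher probe sets of the skin list, of krt18a.1 and cdh1, stood at 1.67 and 1.44, with both ERbeta2 MO arrays above all 4 controls. With the spikes krt97 and anxa1b of the skin list and ambp and kng1 of the liver list turned positive. In whole embryos fewer cells of a type and less RNA per cell cannot be told apart, and the part of these shifts and of RNA quality in the members' values was not tested.

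The bile acid and sterol enzymes were all lower than coMO as deposited, 7 of 9 probe sets by at least 2-fold. The signals of cyp8b1.1, the sterol 12-alpha-hydroxylase of bile acid synthesis, on one of its probe sets were 13.8 and 20.8 in ERbeta2 MO, 631 and 570 in coMO and 543 and 510 in uninjected embryos. The ERbeta2 MO arrays stood far below all 4 controls, at the level of the offset. The log2 difference of -4.22 from coMO (18.6-fold lower) therefore depends on the offset and scaling. It was -5.06 with an offset of 1, -3.03 with an offset of 64 and -3.28 with the poly-A spikes. A second probe set of the same gene read 64.9 and 62.2 in ERbeta2 MO, 504 and 495 in coMO and 349 and 368 in uninjected embryos, at 6.48-fold lower than coMO, so both probe sets had the same direction with different sizes.

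Other steps of bile acid synthesis were lower too. The signals of hsd3b7, the 3-beta-hydroxysteroid dehydrogenase of that pathway, were 140 and 124 in ERbeta2 MO, 450 and 467 in coMO and 374 and 300.1 in uninjected embryos. Those of hsd17b4, the peroxisomal enzyme that shortens side chains of bile acid precursors and very long fatty acids, were 72.8 and 91.9 in ERbeta2 MO, 428 and 437 in coMO and 352 and 383 in uninjected embryos. For both genes the groups did not overlap, at log2 -1.69 and -2.19 from coMO. The side-chain hydroxylase cyp27a1.1 averaged 47.9 ± 13.9 in ERbeta2 MO embryos, 166 ± 8.08 in coMO embryos and 150 ± 8.40 in uninjected ones (SD, n = 2 each).

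The gene cyp7a1b is named as a relative of cyp7a1, which in mammals encodes the first and rate-limiting enzyme of bile acid synthesis. It gave 11.1 and 55.6 in ERbeta2 MO, 122 and 23.4 in coMO and 143 and 81.0 in uninjected embryos. The arrays of each group differed widely and those of ERbeta2 MO and coMO overlapped, so its log2 difference of -0.75 from coMO lies within the spread between replicates. Without the first coMO array that difference was 0.16. From uninjected embryos it was -1.50, with both ERbeta2 MO arrays below both uninjected arrays. The sterol 14-demethylase cyp51, which acts in cholesterol synthesis, had 38.3 and 35.4 in ERbeta2 MO, 118 and 133 in coMO and 131 and 185 in uninjected embryos. Its ERbeta2 MO arrays lay below all 4 controls, at log2 -1.42 from coMO, although the authors' deposited table lists it only against uninjected, with a fold of 0.439.

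The 12 probe sets of P450 families 2 to 4 were lower by log2 1.01 to 2.999 against coMO. With the spike scaling all stayed below 0, 9 of them by at least 2-fold, and cyp3c1 lay at -0.07. These families include many P450s that oxidize drugs and fatty acids. The signals of cyp2ad2, described in the file as an arachidonic acid epoxygenase, were 31.3 and 13.2 on one probe set in ERbeta2 MO, 320 and 247 in coMO and 195 and 243 in uninjected embryos. On its other probe set they were 46.2 and 51.8 in ERbeta2 MO, 263 and 296 in coMO and 256 and 246 in uninjected embryos. Neither probe set overlapped between ERbeta2 MO and the controls, at 7.997-fold and 4.54-fold lower than coMO.

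The gene cyp3a65 is a zebrafish relative of the main drug-oxidizing P450 of the human liver and gut. One of its probe sets gave 35.8 and 46.9 in ERbeta2 MO, 226 and 299 in coMO and 310 and 267 in uninjected embryos, with ERbeta2 MO below all 4 controls and 4.84-fold below coMO. The other read 9.45 and 12.9 in ERbeta2 MO, 44.2 and 171 in coMO and 118 and 137 in uninjected embryos. The coMO arrays themselves differed widely there, so its log2 difference of -1.97 is less certain. The other gene of family 3, cyp3c1, stood nearest to 2-fold in these families, with 223 and 224 in ERbeta2 MO, 436 and 495 in coMO and 454 and 586 in uninjected embryos.

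Among the remaining genes of families 2 and 4, cyp2y3 on one probe set gave 48.0 and 47.5 in ERbeta2 MO, 307 and 351 in coMO and 556 and 500 in uninjected embryos, at log2 -2.43 from coMO and -3.09 from uninjected. Its other probe set read 6.25 and 7.85 in ERbeta2 MO, below the offset, 89.9 and 174 in coMO and 45.4 and 159 in uninjected embryos, so its control arrays spread more. The gene cyp4t8, of the family that oxidizes the ends of fatty acid chains, had 4.55 and 30.8 in ERbeta2 MO, 105 and 130 in coMO and 104 and 146 in uninjected embryos. Against coMO cyp2p6, cyp2p9, cyp2x10.2 and cyp4v2a lay at log2 -2.01, -2.05, -1.64 and -1.76. Of all members 4 probe sets had a mean ERbeta2 MO signal below the offset, and for these no exact fold can be given.

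Family 1 P450s, of which cyp1a is a textbook target of the aryl hydrocarbon receptor, a sensor of dioxin-like compounds, lay at log2 -0.90 to -1.35 from coMO. The signals of cyp1a were 197 and 170 in ERbeta2 MO, 359 and 352 in coMO and 237 and 283 in uninjected embryos. The ERbeta2 MO arrays were lowest and the coMO arrays highest, with the uninjected arrays between them, at log2 -0.90 from coMO and -0.47 from uninjected, and both differences were above 0 when scaled on the spikes. The gene cyp1c1 gave 44.7 and 51.6 in ERbeta2 MO, 147 and 140 in coMO and 90.4 and 166 in uninjected embryos, and cyp1d1 71.0 and 83.9 in ERbeta2 MO, 209 and 236 in coMO and 207 and 208 in uninjected embryos. Neither overlapped with the controls, at log2 -1.32 and -1.35 from coMO. Both were below 0 with each scaling, at -0.38 and -0.42 with the spikes.

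The exception to the general direction, cyp26b1, encodes an enzyme that clears retinoic acid. Its signals were 943 and 727 in ERbeta2 MO, 626 and 433 in coMO and 585 and 406 in uninjected embryos. Both ERbeta2 MO arrays lay above all 4 controls, by log2 0.65 against coMO and 0.74 against uninjected. The arrays of each group spread widely, with means of 835 ± 153 in ERbeta2 MO embryos, 529 ± 137 in coMO embryos and 496 ± 127 in uninjected ones (SD, n = 2 each). In the authors' deposited table its fold over coMO is 2.004, just past the limit of 2, and the table against uninjected does not list it.

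Among the conjugating enzymes ugt1ab, a glucuronosyltransferase, had the largest decrease from coMO. Its signals were 76.8 and 89.5 in ERbeta2 MO, 1373 and 1206 in coMO and 1408 and 1238 in uninjected embryos. The coMO and uninjected arrays were level with each other and the ERbeta2 MO arrays 13.2-fold below coMO. The sulfotransferase sult3st1 gave 58.3 and 34.5 in ERbeta2 MO, 143 and 173 in coMO and 155 and 135 in uninjected embryos, at log2 -1.50 from coMO.

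All 6 glutathione transferases were lower as deposited, by log2 0.78 to 2.14 against coMO, and gsto2 alone was above 0 with the spike scaling. The omega class enzyme gsto1 was dim in ERbeta2 MO, so its rank among them depends on the offset and scaling, with 18.1 and 10.4 in ERbeta2 MO, 111 and 122 in coMO and 98.5 and 136 in uninjected embryos. Its neighbour in the genome and in class, gsto2, differed least, with 644 and 569 in ERbeta2 MO, 1090 and 1014 in coMO and 1201 and 1207 in uninjected embryos. For both genes the ERbeta2 MO arrays lay below all 4 controls. The theta class gene gstt1a averaged 641 ± 52.1 in ERbeta2 MO embryos, 2630 ± 348 in coMO embryos and 2809 ± 252 in uninjected ones (SD, n = 2 each). The kappa class gene gstk1 stood at log2 -1.59 from coMO and gstr, of the rho class found in fish, at -1.91.

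The alcohol and aldehyde enzymes were all lower as deposited, 6 of 10 probe sets by at least 2-fold against coMO. The alcohol dehydrogenase adh8b gave 457 and 457 in ERbeta2 MO, 2048 and 2370.0 in coMO and 2156 and 2014 in uninjected embryos, at 4.69-fold below coMO. The betaine aldehyde type dehydrogenase aldh9a1l, whose human relative acts in carnitine synthesis, averaged 1141 ± 17.3 in ERbeta2 MO embryos, 4339 ± 223 in coMO embryos and 4748 ± 251 in uninjected ones (SD, n = 2 each). These stood at log2 -2.23 and -1.91 from coMO, against -0.62 to -1.56 for the other 8 enzymes of the group. Within it are enzymes of amino acid breakdown rather than of foreign compounds, such as aldh6a1 of the valine pathway, at log2 -1.08, and aldh7a1 of the lysine pathway, at -0.90. The mitochondrial acetaldehyde enzymes aldh2.1 and aldh2.2 stood at -0.93 and -1.08, aldh9a1b at -1.22 and aldh8a1 at -1.56. As named above, aldh16a1, aldh2.1 and aldh7a1 were above 0 with the spike scaling.

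Hydroxysteroid dehydrogenases outside bile acid synthesis and the paraoxonases differed from coMO by log2 -1.12 to -1.76. The gene hsd20b2, a 20-beta-hydroxysteroid dehydrogenase that helps inactivate cortisol in zebrafish, read 67.9 and 37.3 in ERbeta2 MO, 143 and 142 in coMO and 95.97 and 99.4 in uninjected embryos. Here too the ERbeta2 MO arrays were lowest and the coMO arrays highest. The gene hsd11b1la was at log2 -1.12 from coMO, and the probe sets of hsdl2 at -1.17 and -1.76. The lactonase pon2 gave 244 and 221 in ERbeta2 MO, 550.0 and 526 in coMO and 635 and 455 in uninjected embryos, and pon3.2 276 and 251 in ERbeta2 MO, 735 and 681 in coMO and 726 and 610 in uninjected embryos. For both paraoxonases the ERbeta2 MO arrays lay below all 4 controls while coMO and uninjected overlapped, at log2 -1.16 and -1.37 from coMO. Both stayed below 0 with each scaling but fell short of 2-fold with some, at -0.22 and -0.44 with the poly-A spikes.

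**Figure D2:**
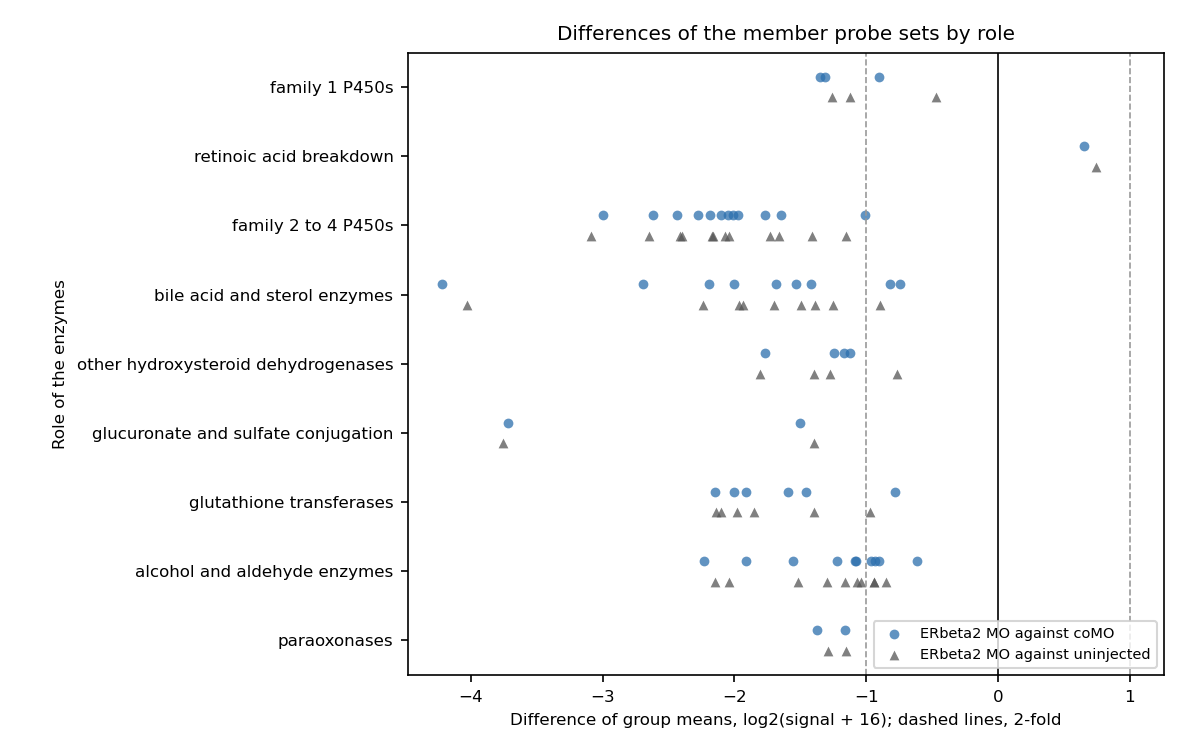
Difference of ERbeta2 MO from coMO (circles) and from uninjected embryos (triangles) for each member probe set (log2(signal + 16) scale, horizontal), by role of the enzymes (vertical); dashed lines mark 2-fold. Probe sets of families 2 to 4 all lie at or beyond 2-fold lower, cyp8b1.1 and ugt1ab reach farthest at -4.22 and -3.72 from coMO, and cyp26b1 is alone above 0 as deposited, while 8 probe sets were above 0 against coMO with the poly-A spikes.

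The 6 genes with 2 member probe sets allow the same gene to be read more than once. In each the probe sets had the same direction as deposited, with gaps from log2 0.19 for cyp2y3 to 1.52 for cyp8b1.1. Those of cyp27a1.4 stood at -2.01 and -0.82 from coMO, the second of them above 0 with the spike scaling.

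Members near the 2-fold limit show how close the selection was. In the authors' deposited tables the fold nearest to it was 2.004 for cyp26b1 over coMO, followed by 0.498 for cyp7a1b and 0.495 for aldh16a1 over uninjected, and 0.481 for gsto2 over coMO. The signals of aldh16a1 were 131 and 89.1 in ERbeta2 MO, 157 and 194 in coMO and 214 and 202 in uninjected embryos, and those of the aldose reductase relative akr1b1.2 were 217 and 261 in ERbeta2 MO, 505 and 456 in coMO and 462 and 581 in uninjected embryos. For both genes the ERbeta2 MO arrays lay below all 4 controls, at log2 -0.62 and -0.96 from coMO. Just outside the limit, and not listed in one of the tables, were aldh7a1 at log2 -0.94 against uninjected and the second cyp27a1.4 probe set at -0.82 against coMO. The other unlisted values were -0.76 for hsd20b2, -0.47 for cyp1a and 0.74 for cyp26b1 against uninjected, and -0.75 for cyp7a1b, -0.62 for aldh16a1 and -1.42 for cyp51 against coMO, the last well past the limit on this scale.

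Position in the genome links some members. In the gene order of RefSeq's GRCz12tu assembly 42 of the 43 genes were placed, and 18 had a gene of the same family among the 5 protein-coding genes on either side. For 11 genes such a neighbour was itself a member: cyp2ad2, cyp2p6 and cyp2p9 lie in a run of family 2 genes, and cyp27a1.1 with cyp27a1.4, aldh2.1 with aldh2.2, gsto1 with gsto2, and pon2 with pon3.2 lie side by side or nearly so. The gene ugt1ab had 6 neighbours of the ugt1 family, and such copies can share probe sequence. How far the probe sets tell them apart was not tested.

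In the remaining contrast, coMO against uninjected embryos, the authors' table lists no member. The rule draws on that table too, and the same control arrays set the contrasts that chose the members, so the values below are a description and no independent test. Of the 49 probe sets 35 passed the filter on low signals and were tested. In limma, with a Benjamini-Hochberg adjusted p over 9301 probe sets, 0 of 35 passed 0.05 and the smallest adjusted p was 0.182; 0.484% of all probe sets passed. At an unadjusted p under 0.05 there were 5 of 35, against 7.78% of all 9301 probe sets (724). These were gstt1b (log2 -0.53) and 1 probe set of cyp2y3 (-0.66), lower in coMO, and 1 probe set of cyp8b1.1 (0.46), hsd3b7 (0.44) and cyp1a (0.43), higher in coMO. The signals of gstt1b, a theta class glutathione transferase with the smallest adjusted p, were 669.7 and 649.7 in coMO and 941 and 977 in uninjected embryos, and 221 and 241 in ERbeta2 MO. Its coMO and uninjected arrays did not overlap. A p that misses the threshold does not show equal levels, but for 34 of the 35 the 95% interval of the difference lay within 2-fold, and for cyp2y3 it reached -1.05.

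**Figure D3:**
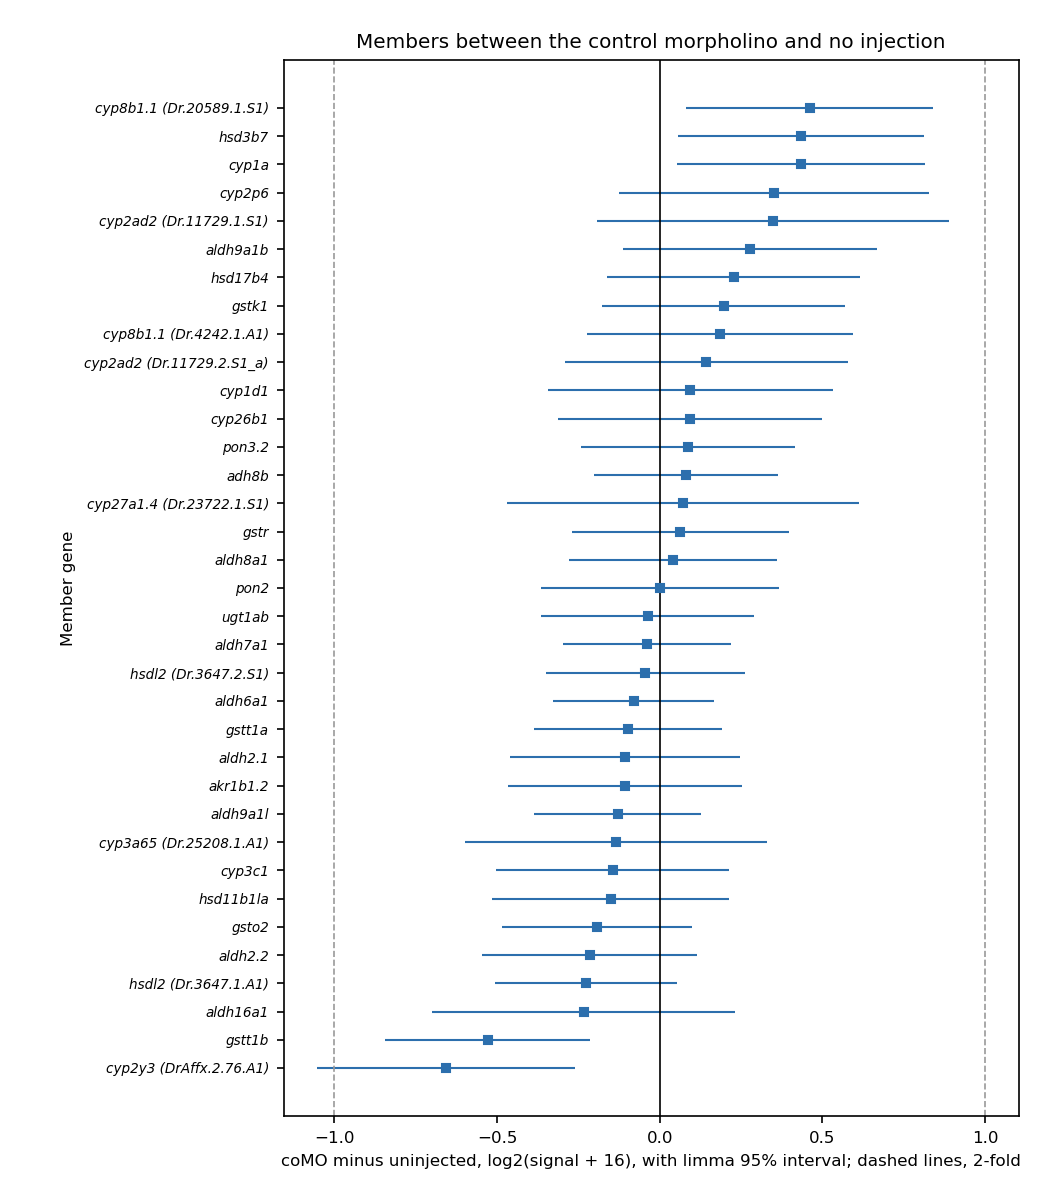
Difference of coMO minus uninjected embryos (log2(signal + 16), horizontal) with limma's 95% interval for the 35 member probe sets tested (rows, sorted by difference); dashed lines mark 2-fold. Intervals of 34 probe sets stay within the dashed lines, and that of cyp2y3 crosses the lower one at -1.05.

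Genes around these enzymes were looked up in 8 lists of receptors, cofactor suppliers, transporters and further enzymes, 210 genes without the members. The tables name 29 of them with 33 probe sets, chosen by the same 2-fold limit, so their counts too are a description. Of the 33, 29 were lower than in coMO as deposited, 25 by at least 2-fold, at a median of -1.52. With the spike scaling ugdh, mgst3a, gdap1 and 1 of 2 probe sets of rpe65a turned positive.

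The carboxylesterases, which cleave ester drugs and lipids, had the largest differences among other metabolizing enzymes. The signals of ces2b were 137 and 132 in ERbeta2 MO, 1406 and 1411 in coMO and 1728 and 1864 in uninjected embryos, and those of ces2a 752 and 688 in ERbeta2 MO, 4238 and 4183 in coMO and 4068 and 4059 in uninjected embryos. Neither overlapped. The monoamine oxidase mao stood at log2 -1.52 and gdap1 at -0.91.

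Suppliers of the reactions were lower alongside. All 6 probe sets of 5 such genes were below coMO as deposited, among them the electron donor cyb5a (log2 -1.57), the P450 partner pgrmc1 (-1.48 and -1.87), ugp2b, which makes UDP-glucose on the way to glucuronate (-1.54), and papss2b, which makes the sulfate donor (-1.40). The 2 transporters named, slc10a2, which takes up bile acids in the gut, and slco1d1, an organic anion carrier, stood at -2.42 and -1.54. Of the nuclear receptors hnf4a, a regulator of liver and gut genes, was at -1.05 and nr1h5 at 0.35, both below the filter on low signals.

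The Nrf2 list, which covers antioxidant defence, was mixed. The transcription factor gene nfe2l2a itself had 60.3 and 53.7 in ERbeta2 MO, 350.0 and 306 in coMO and 378 and 402 in uninjected embryos, with no overlap. The quinone reductase nqo1, also on the aryl hydrocarbon receptor list as its 1 named gene, stood at log2 -1.28 from coMO, gpx1a at -1.20 and txnrd3 at -2.05. The peroxiredoxin prdx1 went the other way, with 1418 and 1380 in ERbeta2 MO, 691 and 697 in coMO and 774 and 524 in uninjected embryos.

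The retinoid and steroid lists were also mixed. Of 8 probe sets on the retinoid list 7 were lower than coMO, led by rlbp1a, a retinal carrier of the eye (log2 -2.73), rbp2a, the intestinal retinol binding protein (-2.07), and the retinol dehydrogenase rdh1 (-2.04). The named retinoic acid binding proteins went opposite ways. The gene crabp2a was higher, with 1838 and 2029 in ERbeta2 MO, 985 and 1317 in coMO and 1281 and 1140 in uninjected embryos, the direction of cyp26b1. The gene crabp1a was lower, with 134 and 162 in ERbeta2 MO, 371 and 408 in coMO and 431 and 418 in uninjected embryos. On the steroid list the 5-alpha-reductase srd5a2a (-2.86 and -3.53) and the sex hormone carrier shbg (-3.17 and -3.43) were lower, and the glucocorticoid target fkbp5 was higher by log2 0.61. Between coMO and uninjected embryos 1 of the 10 intestine marker probe sets passed in limma, and 0 of the other marker lists. Of the 8 lists fkbp5 was the only probe set to pass in limma, higher in coMO by log2 0.68 (Benjamini-Hochberg adjusted p = 0.039). It passed under 7 of 17 alternatives, with adjusted p between 0.0043 and 0.624. Its signals were 2090 and 1880 in ERbeta2 MO, 1273 and 1309 in coMO and 919 and 693 in uninjected embryos, and no 2 groups overlapped. Genes of the lists were chosen by the 2-fold limit on these same arrays. The adjusted p of fkbp5 is therefore a description and no independent test.

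**Figure D4:**
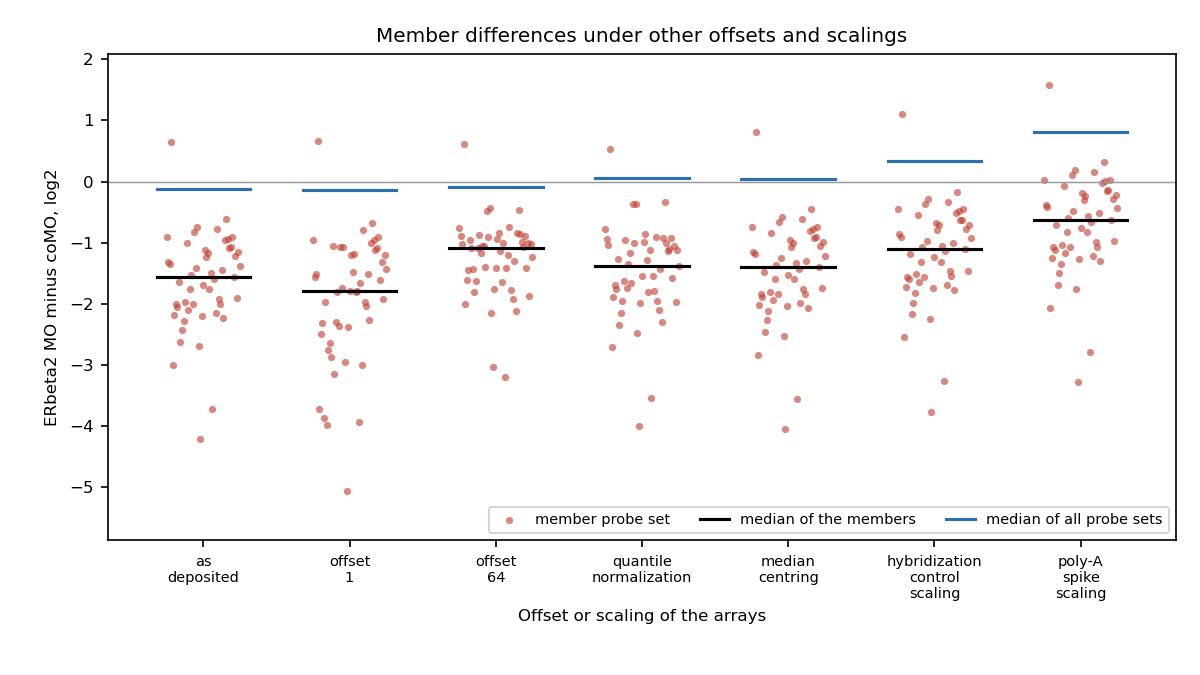
Difference of ERbeta2 MO minus coMO (log2, vertical) of the 49 member probe sets (points) as deposited and under other offsets and scalings (horizontal), with the median of the members (black) and of all probe sets (blue). The members' median lies below that of all probe sets under each setting, at -1.56 against -0.12 as deposited and at -0.62 against 0.81 with the poly-A spikes. Median centring and the scalings on controls shift all probe sets of an array alike. They leave this gap at log2 -1.43 and are no check of it. The members were also chosen for 2-fold differences on these same arrays.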

How the data were processed

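Total RNA of whole embryos was measured on 6 Affymetrix zebrafish arrays. Signal intensities were deposited by the authors as MAS5 values, per the submitters' processing notes; the sources used here give neither version nor settings. Each comparison table was deposited with a fold of the authors, which is a linear ratio whose computation is not stated in these sources. All 90 folds of members had the direction of the signals. Current symbols came from GeneIDs for 48 member probe sets, and 1 kept the symbol as written. Columns of values with no sample numbered 0.

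Intensities were put on the log2(signal + 16) scale without added normalization. Descriptions used all 15502 probe sets besides 115 controls. For coMO against uninjected, limma 3.58.1 in R 4.3.3 (eBayes with trend, 3 residual degrees of freedom) was fitted on 9301 probe sets, without the 40% of lowest mean signal. The fit was also run on simulated arrays with planted differences, and the outcome is not given here. Those arrays held no differences of scaling or RNA quality, so the run was no check of the fit under such differences. The number of arrays limits the precision. The ERbeta2 MO contrasts carry no test. Members, lists and tests were chosen with earlier results of these data known. Every member may be named; per-array signals are given for the 12 largest decreases, families 1, 7 and 26, pon2 and those nearest to 2-fold, and for others chosen after their values were seen. Of the lists up to 4 genes each were named by size, and a few more after their values were seen. Roles were assigned after the values were seen. Alternatives were other offsets, filters, scalings, a replicate block, fewer arrays and 1 probe set a gene. Receptor genes of the series title were not analysed here, and no sequence was printed.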

Additional observations from a re-analysis of the deposited data

How the results depend on the processing

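The count of members at least 2-fold lower than coMO, 40 as deposited, was 17 when the poly-A spikes set the scale and 16 without the 60% of probe sets of lowest mean, which leaves 21 members; against uninjected embryos the 41 became 23 and 18. With the hybridization controls the counts against coMO and uninjected embryos were 28 and 30, and with an offset of 64 they were 33 and 32. Leaving out each array in turn gave 39 to 42 and 40 to 42. The median log2 difference from coMO was -1.79 with an offset of 1, -1.09 with an offset of 64, -1.38 with quantile normalization, -1.39 with median centring, -1.10 with the hybridization controls, -0.62 with the poly-A spikes and -1.37 without the lowest 60%, and -1.63 to -1.51 with 1 array left out. From uninjected embryos it was -1.72, -1.14, -1.36, -1.36, -1.12, -0.86 and -1.40 in the same order, -1.40 both with 1 probe set a gene and without the lowest 40%, a setting chosen after seeing the data, and -1.59 to -1.47 with 1 array left out. With the poly-A spikes cyp1a (log2 0.033), cyp7a1b (0.19), aldh16a1 (0.32) and gsto2 (0.15) reversed against coMO. So did aldh2.1 (0.0019), aldh7a1 (0.032) and the second probe set of cyp27a1.4 (0.11). Without the first coMO array cyp7a1b reversed as well, and leaving out each array in turn gave it -1.65 to 0.16. Of the pathway lists 12 probe sets in place of 25 were at least 2-fold lower with the spikes, and 24 to 27 with 1 array left out. Between coMO and uninjected embryos 0 members passed in limma in every setting run, with smallest adjusted p from 0.109 to 0.606, while the count over all probe sets, 45, was 88 with a replicate block and 9 without the second coMO array. Same-numbered arrays of coMO and uninjected embryos deviated together only weakly (r = 0.12 across probe sets). The pairs with ERbeta2 MO had r of 0.012 and 0.013. The labels do not say whether same-numbered samples share more than a number. Each group holds 1 array of each replicate number. The replicate block therefore could not change an ERbeta2 MO difference and was no check of those differences. Dim members near the offset have no exact fold.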

Other observations

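Probe sets that the rule left out but the tables describe as such enzymes numbered 7. The probe set assigned to both cyp26a1 and another locus, the main retinoic acid clearing P450 of early zebrafish embryos, gave 355 and 416 in ERbeta2 MO, 139 and 175 in coMO and 165 and 172 in uninjected embryos. Both ERbeta2 MO arrays lay above all 4 controls, by log2 1.22 against coMO, the direction of cyp26b1. The probe set shared by both aldh2 genes gave 545 and 528 in ERbeta2 MO, 1924 and 1789 in coMO and 1533 and 1649 in uninjected embryos, at log2 -1.76 from coMO, a larger difference than those of the probe sets named for 1 aldh2 gene (-0.93 and -1.08). How far those probe sets tell the 2 aldh2 genes apart was not tested. Of the 5 loci described only by likeness, 3 as sulfotransferases and 2 as P450s, all were lower than in both controls, by log2 1.28 to 2.53 against coMO. One of them, LOC566960, described as similar to a SULT2 sulfotransferase, gave 489 and 462 in ERbeta2 MO, 1503 and 2136 in coMO and 1972 and 1982 in uninjected embryos.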
